A study of Mus musculus with 3 samples.

Results

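Apoe and 8 other genes of lipid handling (Lpl, Abca1, Abcg1, Lrp1, Soat1, Npc1, Npc2 and Fabp5) were examined in single cell RNA sequencing of sorted mouse brain myeloid cells. The 9 genes were taken by name, and all 9 were present in each of the 3 count matrices, which together held 15338 genes. Their level and spread in microglia were compared with those in the macrophages marked by Mrc1 and Pf4, and their order across the genotypes was recorded.

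The 3 libraries, 1 per genotype, came from mice of 8 weeks labelled hCD33m (female), hCD33M (male) and Control (male, wild type). hCD33m and hCD33M are the short and the long isoform of human CD33, a sialic acid binding receptor, placed behind a floxed stop cassette at the Rosa26 locus and switched on in microglia by Cre from the Cx3cr1 locus. The hCD33m line came from a single ES cell clone. The sources used here do not give the number of brains pooled per library in this experiment, or whether the Control mice carried the Cre allele. Sex cannot be told apart from genotype in any comparison with hCD33m, and each genotype difference below compares a pair of libraries, with no replicate check. Brains were perfused and stored in transcription and translation inhibitors, and cells positive for CD11b, CD45 and Cx3cr1 were sorted. In its results the paper describes the sorted cells as low in CD45. Macrophages and monocytes below are only those that passed this sort, and need not represent all such cells of the brain. Sorted cells were loaded on the 10x 3′ platform. This platform counts 1 tag at the 3′ end of each captured transcript as a unique molecular identifier (UMI), so levels below, in CPM (UMIs of the gene per 1000000 UMIs of the same cells), need no length correction. Genes can still differ in capture, and levels are therefore compared between cells more safely than between genes.

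Apolipoprotein E carries cholesterol and phospholipid between cells in the brain, where astrocytes are its main source and macrophages and activated microglia also make it. Cholesterol taken up on such particles through receptors such as LRP1 is freed in the lysosome, passed out by NPC2 and NPC1, stored as ester by SOAT1 or sent out of the cell by the transporters ABCA1 and ABCG1, which load apolipoprotein E. LPL releases fatty acids from lipoprotein triglyceride, and FABP5 carries fatty acids inside the cell. Border-associated macrophages (BAMs) of the meninges, perivascular spaces and choroid plexus differ from parenchymal microglia in origin and in many of these genes.

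On the mm10 genome (GENCODE vM21) Apoe lies on the minus strand of chromosome 7, from 19696109 to 19699188, and the next apolipoprotein gene, Apoc1, lies 3448 bases downstream of it on the same strand. Soat1 is on chromosome 1, Fabp5 on chromosome 3, Abca1 on chromosome 4, Lpl on chromosome 8, Lrp1 on chromosome 10, Npc2 on chromosome 12, Abcg1 on chromosome 17 and Npc1 on chromosome 18. All 9 are annotated as protein coding.

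The matrices held 5707, 5100 and 3482 cell barcodes for hCD33m, hCD33M and Control, with 21529542 to 32572995 UMIs each, and 5 to 10 barcodes were shared by any pair of libraries. After the cell filter 5612, 5046 and 3412 cells were clustered on genes that included none of the lipid genes. This gave 4894, 4556 and 3001 microglia-like cells, 123, 99 and 82 BAM-like cells and 28, 23 and 19 monocyte-like cells. Another 567, 368 and 310 cells of low UMI content were left unnamed. In microglia-like cells P2ry12, a microglial receptor, was at 3463, 3360 and 3238 CPM, and Mrc1 and Pf4 were at 0.905 to 9.99 CPM. In BAM-like cells Mrc1 was at 1293, 1545 and 1179 CPM and Pf4 at 1411, 1335 and 1279 CPM, and a Mrc1 or Pf4 UMI was present in 119 of 123, 95 of 99 and 75 of 82 cells. The BAM-like cells nevertheless carried P2ry12 at 1949, 1610 and 2153 CPM, against 409, 278 and 508 CPM in monocyte-like cells, and their median UMI content was 9563, 6921 and 9023 per cell against 5281, 5184 and 5565 in microglia-like cells. A stricter gate on single cells (at least 3 UMIs of Mrc1, Pf4, Ms4a7 and F13a1 together, and more of these than of P2ry12, Tmem119 and Sall1) held 73, 62 and 49 of the BAM-like cells, with P2ry12 at 876, 811 and 1383 CPM. The BAM-like class thus carried microglial transcripts, and class differences are given both for all BAM-like cells and for those within the gate.

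Apoe was the member with the largest class difference. Its level in BAM-like cells was 26547, 30718 and 21748 CPM in the hCD33m, hCD33M and Control libraries, against 843, 472 and 556 CPM in microglia-like cells. All 3 BAM-like levels were far above all 3 microglia-like levels. Within the library the BAM-like cells held 31.5, 65.1 and 39.1 times as much Apoe as the microglia-like cells. In a quasi-likelihood fit (edgeR, library as a block) over 11829 genes, Apoe was higher in BAM-like cells by 5.54 ± 0.12 on the log2 scale (SE of the fit, 3 libraries, adjusted p = 2.8e-64). The log2 ratios of the single libraries were 4.98, 6.02 and 5.29, a wider spread than this SE. Within the gate its level was 45752, 45936 and 35440 CPM, or 54.3, 97.3 and 63.8 times that of microglia-like cells. BAM-like cells outside the gate (50, 37 and 33 cells) were at 14698, 16444 and 12030 CPM and carried more microglial RNA, with P2ry12 at 2611, 2360 and 2699 CPM. Their median UMI content was 15756.5, 10502 and 16977 per cell, against 6630, 5889 and 6812 within the gate. The values for all BAM-like cells thus average over unlike sets of barcodes. Monocyte-like cells were between the classes, at 8483, 4746 and 3747 CPM, although they were few.

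Fabp5, the fatty acid carrier, had the next largest class difference and was the rarest member. It was at 18.0, 15.2 and 8.92 CPM in BAM-like cells, from 27, 14 and 9 UMIs, against 2.61, 1.73 and 1.93 CPM in microglia-like cells. All 3 BAM-like levels were above all 3 microglia-like levels. The fitted log2 difference was 2.85 ± 0.36 (SE, adjusted p = 8.6e-11), but within the gate the hCD33m ratio was 2.01, beside 11.6 in hCD33M and 6.19 in Control, and the counts behind it were small.

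The cholesterol export genes went in different directions. Abca1, the ABC transporter that loads lipid-poor apolipoproteins, was at 301, 259 and 281 CPM in BAM-like cells, against 254, 240 and 247 CPM in microglia-like cells. The log2 ratios of these CPM were 0.24, 0.11 and 0.19. The fit uses normalization factors rather than library totals, so its values can differ from CPM ratios here and below. Its log2 difference for Abca1 was 0.30 ± 0.06 (SE, adjusted p = 4.1e-05). The adjusted p was 0.076 when library totals replaced the normalization factors, 0.086 without the hCD33m library and 0.45 when both classes were taken from single-cell gates. Abcg1, which exports cholesterol to particles that already carry lipid, was at 82.2, 59.6 and 87.3 CPM in BAM-like cells and 103, 103 and 111 CPM in microglia-like cells. Every BAM-like level was lower than every microglia-like level, with a fitted log2 difference of -0.34 ± 0.10 (SE, adjusted p = 0.0052). Within the gate Abcg1 was at 43.8, 38.1 and 50.2 CPM and the difference was -1.09 (adjusted p = 9.7e-09). The adjusted p of Abcg1 was 0.093 without the hCD33M library and 0.099 with DESeq2.

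Lrp1, the large endocytic receptor for apolipoprotein E and many other ligands, was at 336, 336 and 360 CPM in BAM-like cells, against 409, 469 and 457 CPM in microglia-like cells. Every BAM-like library was lower than every microglia-like library. The fitted class difference was -0.25 ± 0.08 on the log2 scale (SE, adjusted p = 0.013), beside CPM ratios of -0.28, -0.48 and -0.35. Within the gate the fitted difference was -0.69 (adjusted p = 8.0e-08). The adjusted p was 0.061 without the hCD33m library and 0.059 without the Control library.

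In the lysosomal and storage steps the differences were small. Npc2, the soluble sterol carrier of the lysosome, was at 780, 912 and 848 CPM in BAM-like cells. In microglia-like cells it was at 676, 699 and 690 CPM. The fitted log2 difference was 0.41 ± 0.08 (SE, adjusted p = 1.0e-05), beside log2 CPM ratios of 0.21, 0.38 and 0.30. Soat1, which esterifies cholesterol for storage, was at 141, 121 and 120 CPM in BAM-like cells. In microglia-like cells it was at 107, 110 and 99.3 CPM. The fitted log2 difference was 0.40 ± 0.09 (SE, adjusted p = 0.00012), beside log2 CPM ratios of 0.39, 0.14 and 0.27. In both genes the BAM-like libraries were all above the microglia-like libraries, and within the gate the log2 differences were 0.62 (Npc2) and 0.52 (Soat1). Npc1, the membrane partner of NPC2, was at 168, 143 and 167 CPM in BAM-like cells and 175, 176 and 160 CPM in microglia-like cells. These ranges overlapped, and no difference was detected (log2 0.02 ± 0.07, SE, adjusted p = 0.89).

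Lpl, which hydrolyses lipoprotein triglyceride, did not separate the classes. It was at 47.4, 16.3 and 22.8 CPM in BAM-like cells, from 71, 15 and 23 UMIs, against 35.2, 23.4 and 27.9 CPM in microglia-like cells. The hCD33m library was higher in BAM-like cells and the other 2 were lower, and the fitted difference was 0.16 ± 0.17 on the log2 scale (SE, adjusted p = 0.59) and -0.28 without the hCD33m library. When both classes were taken from single-cell gates it was 0.53 (adjusted p = 0.047).

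**Figure D1:**
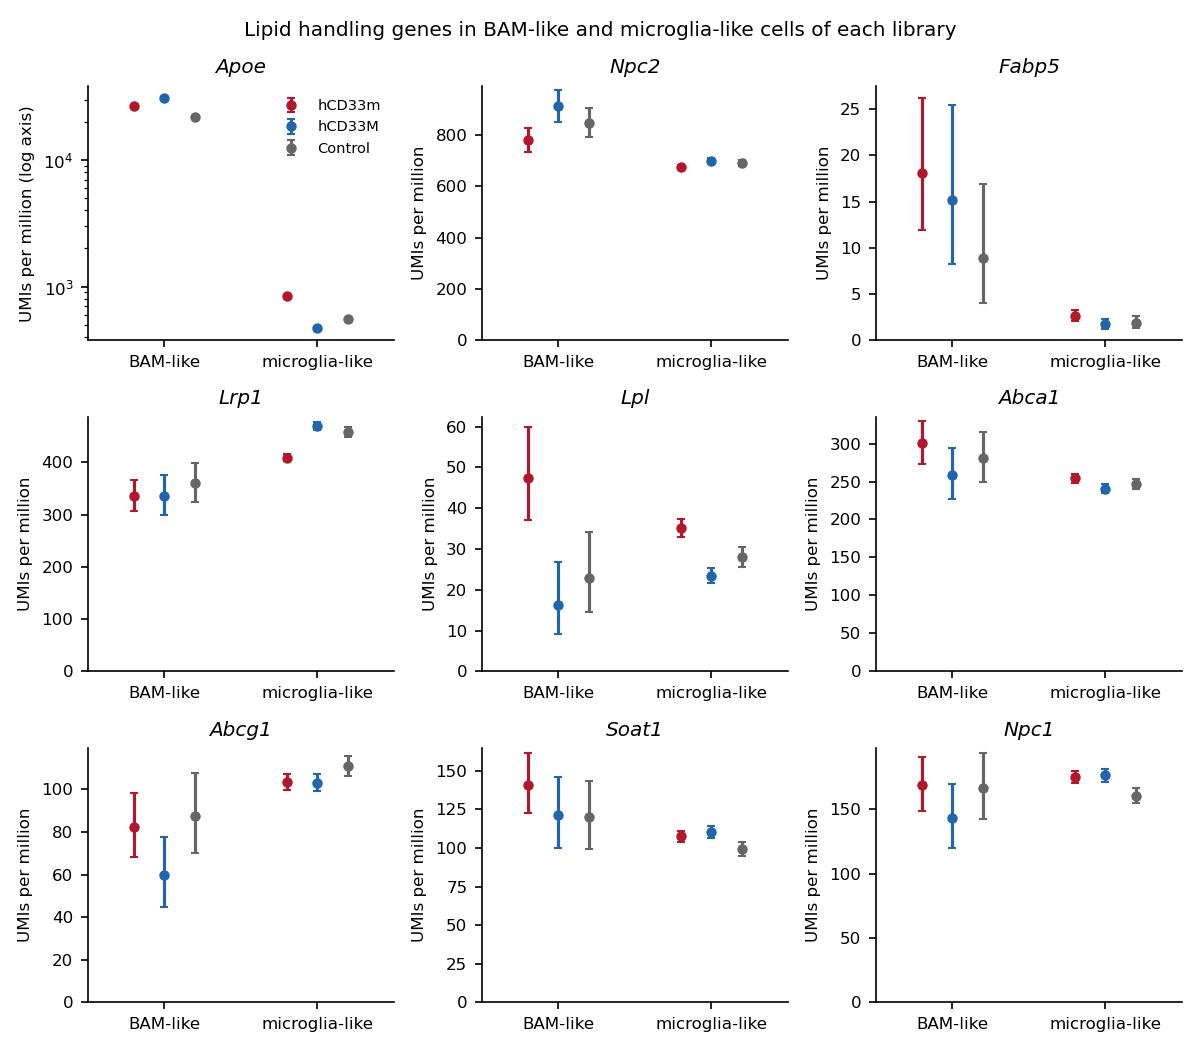
Levels of the 9 lipid handling genes in CPM, in BAM-like cells (left of each panel) and microglia-like cells (right), for the hCD33m, hCD33M and Control libraries. Points are the value of 1 library and bars its exact Poisson 95% interval, which covers counting error only. The Apoe panel has a log axis and the others start at 0. Apoe separates the classes by more than an order of magnitude (26547, 30718 and 21748 against 843, 472 and 556), while Npc1 and Lpl overlap.

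Of the 9 members, 5 were therefore higher in BAM-like cells (Apoe, Fabp5, Npc2, Soat1 and Abca1), 2 were lower (Abcg1 and Lrp1) and 2 did not pass. Over all 11829 genes tested, 12.6% were higher and 8.73% lower at an adjusted p under 0.05, and the median log2 difference was -0.02, against 0.30 over the members. Apart from Apoe and Fabp5, the members lay between -0.34 and 0.41 on the log2 scale. The fit treats libraries of 3 genotypes as replicates of a class difference. The classes were cut from other genes of the same cells, so the p-values do not show that the classes are an independent grouping. Nor do they measure by themselves how alike the libraries were, since the Apoe ratio ran from 31.5 to 65.1 in single libraries.

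**Figure D2:**
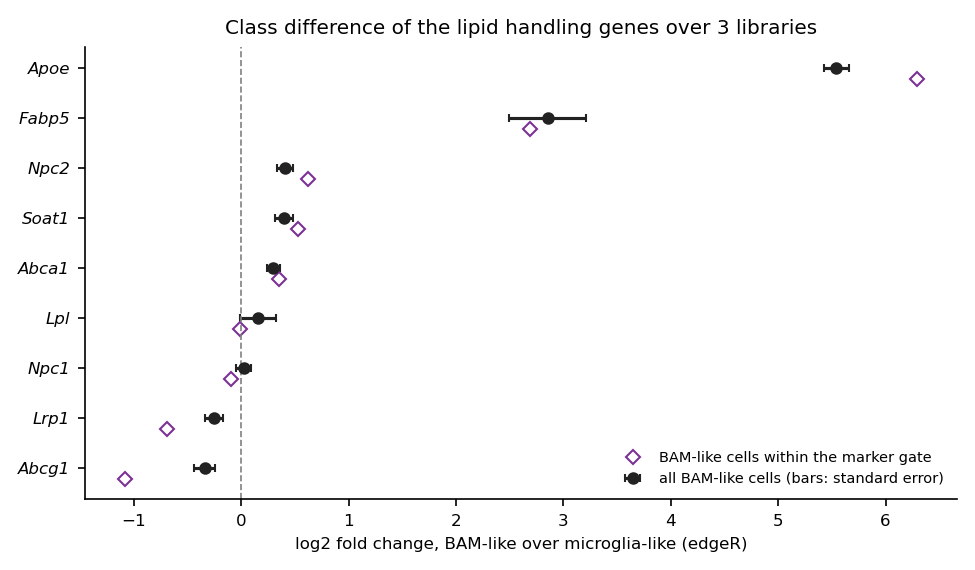
Fitted log2 fold change of each gene in BAM-like over microglia-like cells (horizontal axis), with all BAM-like cells (filled circles, bars are 1 standard error) and with those inside the marker gate (open diamonds, no bars). Apoe (5.54) and Fabp5 (2.85) stand to the right, and Abcg1 and Lrp1 lie further below 0 within the gate (-1.09 and -0.69) than over all BAM-like cells (-0.34 and -0.25).

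Other genes of lipid metabolism were read from the same fit. Each list count is to be read beside the shares over all genes, 12.6% higher and 8.73% lower. Of 25 tested genes of cholesterol synthesis, uptake and SREBP2 regulation, 13 were higher and 2 lower in BAM-like cells, with a median log2 difference of 0.62. Among the highest were Sqle (3.47), an enzyme of the sterol pathway, and Stard4 (2.81), a sterol carrier. The lowest were Scap (-0.74) and Insig2 (-0.43), which escort and retain the SREBP precursor. Higher calls in this list numbered 9 with DESeq2, 9 to 11 when 1 library was left out and 7 at a fixed 2000 UMIs per cell.

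Among 12 tested lipoprotein and lipid receptors, 4 were higher and 1 lower, beside 12.6% and 8.73% of all genes. The scavenger receptors Cd36 and Msr1 were higher by 8.30 and 5.21 on the log2 scale. Cd36 was at 80.9, 113 and 94.2 CPM in BAM-like cells against 0.261 to 0.339 CPM in microglia-like cells. Trem2, a lipid-sensing receptor of microglia, was lower by the fit (log2 -0.48, adjusted p = 3.6e-07), at 1908, 1542 and 2234 CPM in BAM-like cells against 2808, 2770 and 2946 CPM in microglia-like cells. Of 5 other apolipoproteins measured, 2 had enough counts to be tested, and both were higher, Apoc1 by 4.01 and Apod by 3.79. Both passed the count filter only through the BAM-like sums, where they were high, so the filter favoured this direction. The same holds for Sqle, Cd36 and Pltp. With no filter on low counts 2 of the 5 were higher. Apod rested on 4, 6 and 5 UMIs in BAM-like cells. Apoc1 was at 6.68, 13.01 and 30.7 CPM in BAM-like cells, from 10, 12 and 31 UMIs. In microglia-like cells it was at 1.96, 0.189 and 0.9902 CPM. The order of the libraries for Apoc1 in BAM-like cells was thus not that of Apoe, although it rests on these few UMIs.

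Of 12 genes of the LXR and PPAR axis, 3 were higher and 4 lower (median log2 -0.14). Over all genes 12.6% were higher and 8.73% lower, and a list count near these shares is not a result about the list. Pltp, the phospholipid transfer protein, was at 208, 167 and 111 CPM in BAM-like cells against 1.35, 0.528 and 0.886 CPM in microglia-like cells (log2 7.58, adjusted p = 8.0e-64). Srebf1 (0.64), the lipogenic SREBP, and Smpdl3a (0.51), a secreted phosphodiesterase, were also higher. The lower genes were Arl4c (-0.28), Scd2 (-0.65), a desaturase, Mylip (-0.55), a ubiquitin ligase, and Lpcat3 (-0.50), a phospholipid remodelling enzyme. Higher calls in this list numbered 1 with DESeq2, at 2000 UMIs per cell and without the hCD33m library. With BAM-like cells within the gate 2 genes of the list were higher and 6 lower (median log2 -0.44). Of 13 genes of lipid storage and lipolysis, 2 were higher, the droplet coat genes Plin2 (1.30) and Plin3 (1.01), and 2 were lower, G0s2 (-2.40), an inhibitor of triglyceride lipase, and Mgll (-0.75), the monoglyceride lipase. G0s2 had 2, 0 and 0 UMIs in BAM-like cells. Of 15 genes of lysosomal lipid breakdown 5 were higher, led by Galc (1.43) and Lipa (0.38), the acid cholesteryl ester hydrolase, and 1 was lower. No gene of fatty acid oxidation passed in either direction among 12 tested.

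In the smaller lists few genes were called, and counts near 12.6% higher and 8.73% lower, the shares over all genes, are not results about a list. Among them, 2 of 7 ABC lipid transporters were higher (Abca7, 0.72, and Abca9, 0.26) and 1 was lower (Abcg2, -0.69). Acsl3 (1.63) and Dbi (0.83), which activate and carry fatty acids, were the 2 higher genes among 8 of fatty acid binding. Sterol trafficking had 3 higher genes, with Anxa6 (0.57) and Osbpl9 (0.53) among them, and 1 lower gene (Stard3, -0.47) among 11, and lipid mediators had Alox5 higher (0.57) and Ptgs1 lower (-0.53) among 8. Several of these calls depended on the setting. Higher calls numbered 0 in lipid mediators with library totals, DESeq2, no library block, 2000 UMIs per cell or the stricter cell filter and without the hCD33m or the Control library. They numbered 0 in ABC transporters with DESeq2, at 2000 UMIs per cell and without the Control library, and 0 in sterol trafficking at 2000 UMIs per cell.

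Within microglia-like cells Apoe was the member spread most unevenly, followed by Lpl. For this comparison each cell was thinned to 2000 UMIs, which left 4835, 4506 and 2962 cells and left out 59, 50 and 39 shallower ones. The mean was then 1.51, 0.924 and 0.968 Apoe UMIs per cell in hCD33m, hCD33M and Control, but the median cell held 0. An Apoe UMI was found in 38.5% (95% interval 37.1 to 39.9), 20.2% (19.1 to 21.4) and 24.2% (22.7 to 25.8) of cells (exact Clopper-Pearson intervals, counting error only), and in 57.3%, 34.5% and 42.1% without thinning. Every fraction was far below that of the BAM-like cells, of which 100%, 97.0% and 98.6% held Apoe at 2000 UMIs, with a median of 58.5, 59 and 47.5 UMIs. No class here lacked Apoe. Without thinning 96.4%, 95.7% and 100% of the monocyte-like cells had an Apoe UMI, at a median of 5816, 10635 and 10045 UMIs per cell, so a background share could not be read from a negative class.

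The variance of Apoe over its mean (Fano factor, 1 for random sampling of equal cells) was 37.8, 50.3 and 43.1 in microglia-like cells. For Abca1, Abcg1, Lrp1, Soat1, Npc1, Npc2 and Fabp5 it ranged over 0.998 to 1.33, and for Lpl it was 2.63, 2.13 and 2.22. The 5% of microglia-like cells richest in Apoe held 54.9%, 78.3% and 72.1% of all Apoe UMIs in hCD33m, hCD33M and Control, where a Poisson distribution of the same mean gives 14.9%, 18.2% and 17.6%. The richest 1% alone held 29.6%, 52.5% and 45.5%. For Npc2, with a mean of 1.33, 1.36 and 1.36, the top 5% held 16.8%, 17.0% and 16.5%, near the Poisson values of 15.8 to 15.9%. For Lpl the richest 1% of cells held 45.5%, 46.7% and 49.0% of the UMIs, where a Poisson distribution gives 17.9%, 23.6% and 21.9%, from 332, 212 and 153 UMIs. For Lrp1 the top 5% held 20.6%, 19.1% and 19.4% against 18.5 to 19.8%. Under 6 alternatives the Apoe share of the top 5% was 50.3 to 56.6% in hCD33m, 74.2 to 81.2% in hCD33M and 67.7 to 74.5% in Control, so hCD33m was the lowest library in each.

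Cells with 20 or more Apoe UMIs per 2000 were rare in every library, with 40, 35 and 23 cells (0.827%, 0.777% and 0.777%) in hCD33m, hCD33M and Control. They contributed 0.416, 0.446 and 0.406 Apoe UMIs per cell of the whole library. Cells with 5 to 19 UMIs contributed 0.566, 0.213 and 0.251, and cells with 1 to 4 UMIs 0.527, 0.265 and 0.312. The higher mean of hCD33m was thus found in cells of low and middle Apoe content, and the part from the richest cells was similar in the 3 libraries.

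**Figure D3:**
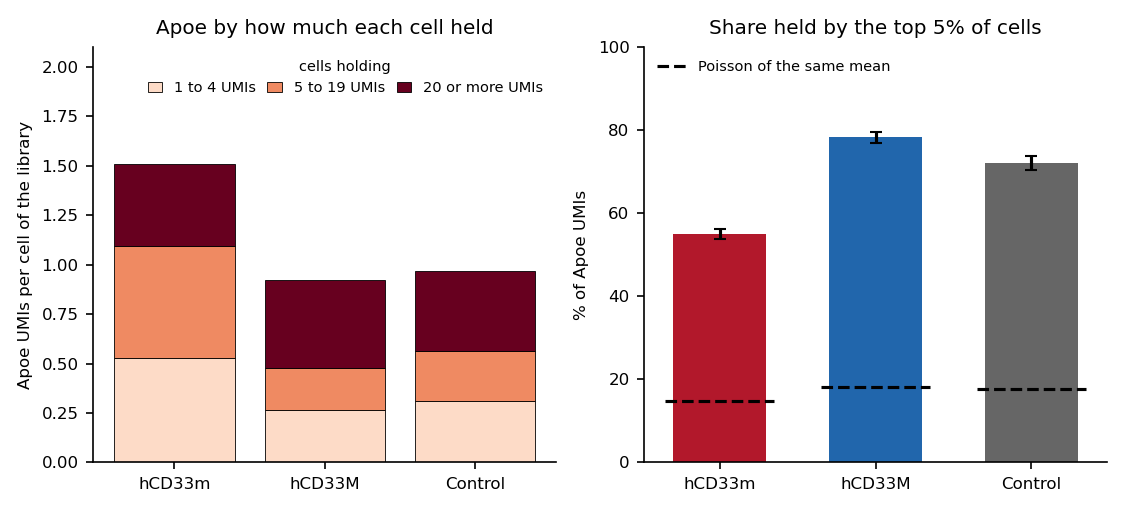
Apoe in microglia-like cells thinned to 2000 UMIs each. Left, Apoe UMIs per cell of the library, stacked by cells holding 1 to 4, 5 to 19 or 20 or more Apoe UMIs, for hCD33m, hCD33M and Control. The top segments are alike (0.416, 0.446 and 0.406) and the lower segments are larger in hCD33m. Right, the percentage of Apoe UMIs held by the richest 5% of cells, with exact binomial 95% intervals as bars and the value of a Poisson distribution of the same mean as dashed lines. The bars take UMIs as independent and leave out the spread between cells and libraries. The richest single cell alone held 5.08%, 4.86% and 7.65% of Apoe without thinning.

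The Apoe-rich cells were not spread evenly over the microglia-like clusters. Of cells with 20 or more Apoe UMIs, 42.5%, 57.1% and 43.5% were in cluster 1, led by Ccl4, Ifit3 and Ccl3, against 7.20%, 13.1% and 10.0% of cells without Apoe. Cluster 9, led by Cst7 and Vcam1, held another 22.5%, 20% and 4.35% of them, against 3.16%, 3.14% and 0% of cells without Apoe. Ccl3 and Ccl4, which lead cluster 1, summed to 0.10, 0.31 and 0.043 UMIs per Apoe-rich cell, against 0.17, 0.23 and 0.44 in cells without Apoe, so they were not higher in the Apoe-rich cells of hCD33m and Control. The Apoe-rich cells had 3.15, 2.89 and 3.61 P2ry12 UMIs per cell at 2000 UMIs, against 6.92, 6.75 and 6.42 in cells without Apoe. A UMI of Mrc1, Pf4, Ms4a7 or F13a1 was present in 15%, 17.1% and 17.4% of them, against 1.68%, 1.08% and 1.07% of cells without Apoe. Npc2 was also higher in the Apoe-rich cells, at 2.28, 2.40 and 2.00 UMIs against 1.27, 1.34 and 1.35. The part of BAM transcripts in these cells was not tested. With all cells holding a UMI of the 4 BAM markers left out, the top 5% of cells held 50.3%, 75.4% and 67.7% of Apoe. This step cannot settle that part, since BAM-like cells held 18.8, 23.0 and 17.0 Apoe UMIs per Pf4 UMI. A cell with BAM-derived Apoe may thus show no marker UMI.

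The extreme of the distribution was a handful of cells. In 36, 34 and 21 microglia-like cells Apoe made up at least 1% of all UMIs of the cell, and these cells held 26.7%, 43.0% and 39.6% of the Apoe UMIs of their library without thinning. The single richest cell of each library had 1265, 608 and 816 Apoe UMIs, or 20.9%, 9.07% and 11.3% of its own UMIs. It supplied 5.08%, 4.86% and 7.65% of all microglia-like Apoe. In 2 of the 36 hCD33m cells, and in none of the hCD33M or Control cells, UMIs of the 4 BAM markers outnumbered those of P2ry12, Tmem119 and Sall1. The richest hCD33m cell was among these 2, with 22 BAM-marker UMIs against 13 microglial ones, so it passed the single-cell gate for BAMs.

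Across clusters Apoe was at 499, 304 and 414 CPM in cluster 0, 686, 219 and 361 CPM in cluster 2 and 658, 265 and 409 CPM in cluster 3 (hCD33m, hCD33M and Control). It was at 2924, 1546 and 1845 CPM in cluster 1. In all 4 clusters hCD33m was the highest library, Control the next and hCD33M the lowest. Cluster 9 was at 1591 and 1177 CPM in hCD33m and hCD33M (160 and 156 cells) and held 1 Control cell. Cluster 7, led by Dusp1 and Fos, was almost all hCD33m (503, 7 and 17 cells), and its hCD33m cells were at 617 CPM. Lpl followed cluster 1 as Apoe did, at 156, 91.7 and 143 CPM there, against 9.81 to 30.0 CPM in clusters 0, 2 and 3. Npc2 was at 801 to 821 CPM in cluster 1 and 596 to 715 CPM in clusters 0, 2 and 3.

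**Figure D4:**
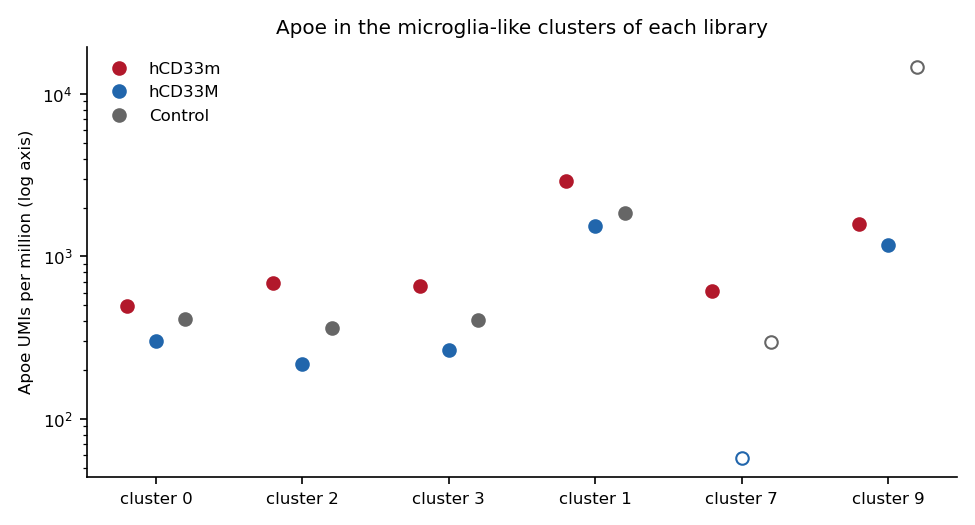
Apoe level (CPM, log axis) in each microglia-like cluster of the hCD33m, hCD33M and Control libraries. Each point is 1 library, and open points rest on fewer than 50 cells. hCD33m is above Control, and Control above hCD33M, in clusters 0, 2, 3 and 1, and cluster 1 is the highest of these 4 in each library (2924, 1546 and 1845).

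Over all microglia-like cells the genotype order of Apoe was hCD33m (843 CPM), Control (556 CPM) and hCD33M (472 CPM). The log2 ratio was 0.60 for hCD33m over Control (95% interval 0.57 to 0.63), -0.24 for hCD33M over Control (-0.27 to -0.20) and 0.84 for hCD33m over hCD33M (0.81 to 0.87). These intervals are exact, conditional on the counts, and cover counting error only. The libraries held different clusters, with cluster 3 the largest in hCD33m (1921 of 4894 cells) and cluster 2 the largest in hCD33M (1646 of 4556) and Control (1311 of 3001). Sex-linked genes were among the leading genes of both, Xist in cluster 3 and Ddx3y and Eif2s3y in cluster 2, and hCD33m was the single female library. The part of sex in these cluster shares was not tested. Neighbours in the order were further apart than counting error, and the order was the same under 10 alternative scalings and cell selections. Counting error leaves out the uneven spread of Apoe over cells. At 2000 UMIs per cell hCD33M and Control were close, at 462 and 484 CPM, with hCD33m at 754 CPM. Whether hCD33M and Control differed beyond the spread between cells was not tested. The hCD33m over Control ratio of 1.52 lay just past the 1.5-fold limit and fell below it with the stricter cell filter (776 against 554 CPM), with single-cell gates (791 against 557 CPM) and over all kept cells (2117 against 1627 CPM).

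Several other measures were also highest in hCD33m and are given beside this order, although Control was not above hCD33M in all of them. Transcripts of BAMs were also highest in the hCD33m microglia-like cells, with Pf4 at 2.64, 0.905 and 1.15 CPM, Ms4a7 at 1.05, 0.339 and 0.365 CPM and Mrc1 at 9.99, 7.05 and 6.10 CPM in hCD33m, hCD33M and Control. Over the 10 BAM markers the summed level was 291, 242 and 243 CPM, of which Stab1 made up 275, 231 and 234 CPM. At the Apoe to Pf4 ratio of BAM-like cells (18.8, 23.0 and 17.0), the Pf4 UMIs in microglia-like cells would come with 5.90%, 4.41% and 3.51% of their Apoe UMIs, and at the Apoe to Mrc1 ratio the figures were 24.3%, 29.7% and 20.2%. After all microglia-like cells with a UMI of the 4 BAM markers were left out, Apoe was at 734, 388 and 461 CPM, in the same order. The astrocyte genes Aldoc and Slc1a2 were at 0.339 to 0.603 CPM in microglia-like cells of every library, although Slc1a3 was at 205 to 235 CPM. Apoe was also higher in hCD33m than in the other libraries in the monocyte-like cells (8483, 4746 and 3747 CPM) and in the unnamed cells of low UMI content (1878, 887 and 1382 CPM). The part of free RNA in the order was not tested.

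In BAM-like cells the order was another one, with Apoe at 26547, 30718 and 21748 CPM for hCD33m, hCD33M and Control. Within the gate hCD33m (45752 CPM) and hCD33M (45936 CPM) were nearly level, above Control (35440 CPM), and at 2000 UMIs per cell the means were 75.4, 74.1 and 63.6 Apoe UMIs with medians of 58.5, 59 and 47.5. Control was the lowest library in each of these measures. The order of the transgenic libraries depended on which BAM-like cells were counted.

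Lpl had the same genotype order as Apoe in microglia-like cells, at 35.2, 23.4 and 27.9 CPM for hCD33m, hCD33M and Control. The log2 ratio was 0.33 for hCD33m over Control (95% interval 0.18 to 0.49), -0.25 for hCD33M over Control (-0.42 to -0.09) and 0.59 for hCD33m over hCD33M (0.44 to 0.73). The order held under all 10 alternatives. The hCD33m over hCD33M fold of 1.503 lay at the 1.5-fold limit, and its log2 value was 0.56 with single-cell gates, 0.55 at 2000 UMIs per cell, 0.50 with the stricter filter and 0.57 without cells holding BAM-marker UMIs, all below the limit. Without clusters 1 and 9 Lpl was at 23.2, 12.7 and 14.6 CPM, so cells outside the Lpl-rich cluster showed it as well. In BAM-like cells hCD33m was also the highest library, at 47.4 CPM against 16.3 and 22.8 CPM, from 71 UMIs against 15 and 23.

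Lrp1 had the opposite order. It was at 409, 469 and 457 CPM for hCD33m, hCD33M and Control, with log2 ratios of -0.16 for hCD33m over Control (95% interval -0.20 to -0.12), 0.04 for hCD33M over Control (-0.002 to 0.08) and -0.20 for hCD33m over hCD33M (-0.24 to -0.16). hCD33m was the lowest library under all 10 alternatives. Soat1 and Npc1 were lowest in Control. Soat1 was at 107, 110 and 99.3 CPM and Npc1 at 175, 176 and 160 CPM, and in both genes each transgenic library was above Control by more than counting error (log2 0.11 to 0.15) while the transgenic libraries did not differ beyond it. Without clusters 1 and 9 Soat1 was at 101, 104 and 100.1 CPM, with log2 ratios over Control of 0.014 and 0.05, and Npc1 was at 173, 178 and 162 CPM. Abcg1 was at 103, 103 and 111 CPM, and both transgenic libraries were below Control by 0.10 and 0.11 on the log2 scale.

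Abca1 and Npc2 were nearly level. Abca1 was at 254, 240 and 247 CPM and Npc2 at 676, 699 and 690 CPM, and neither transgenic library differed from Control beyond counting error in either gene. hCD33m differed from hCD33M by 0.08 in Abca1 (95% interval 0.03 to 0.13) and by -0.05 in Npc2 (-0.08 to -0.02) on the log2 scale. Fabp5 was at 2.61, 1.73 and 1.93 CPM, from 77, 46 and 37 UMIs, and was under the 20 CPM needed to enter the count of genes apart.

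**Figure D5:**
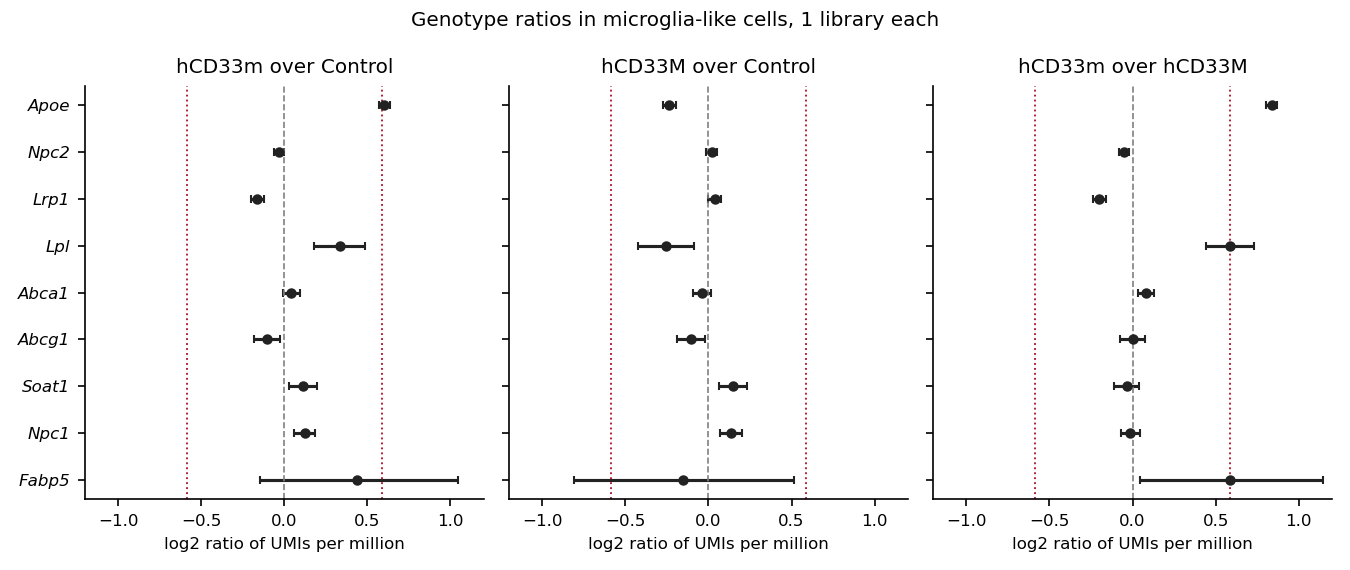
Log2 ratios of CPM between genotypes in microglia-like cells, for hCD33m over Control, hCD33M over Control and hCD33m over hCD33M. Points are ratios of 1 library to another and bars exact conditional 95% intervals (counting error only). Dotted lines mark 1.5-fold. Apoe is past the line in the left and right panels (0.60 and 0.84), Lpl reaches it in the right panel (0.59), and the 6 other genes above 20 CPM stay within 0.20 of 0 in every panel.

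Of the 8 members with at least 20 CPM, 1 was at least 1.5-fold apart in hCD33m over Control (Apoe), where 1.15% of 6771 genes were. None was in hCD33M over Control, where 0.503% of 6753 genes were, and 2 were in hCD33m over hCD33M (Apoe and Lpl), where 0.918% of 6754 genes were. Median log2 ratios over all genes were between -0.02 and 0.01 in the 3 comparisons, and over the members 0.08, -0.01 and -0.01. These comparisons share libraries.

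No gene of the other lipid lists with at least 20 CPM was 1.5-fold apart from Control in either transgenic library. In hCD33m over Control the genes furthest apart were Plin2, a lipid droplet coat gene (23.2 against 17.9 CPM, log2 0.37, interval 0.19 to 0.57), Scd2 (59.1 against 49.8 CPM, log2 0.25) and, on the lower side, the HDL receptor gene Scarb1 (28.0 against 33.2 CPM, log2 -0.25). In hCD33M over Control it was Alox5, a leukotriene synthesis gene (24.5 against 18.2 CPM, log2 0.43, interval 0.24 to 0.62). Alox5 was also the single list gene past the limit in hCD33m over hCD33M (16.0 against 24.5 CPM, log2 -0.61). Among genes of cholesterol synthesis only 6 or 7 reached 20 CPM in microglia-like cells, with median log2 ratios of -0.04, 0.02 and -0.03.

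Across single microglia-like cells no gene tracked Apoe closely. Among 3406 genes with at least 0.1 UMIs per cell, the highest correlations with Apoe (Pearson's r of log2(count + 1) at 2000 UMIs, given as a description) were those of Lyz2, a myeloid lysozyme (0.20, 0.18 and 0.17 in hCD33m, hCD33M and Control), Cd63 (0.16, 0.14 and 0.11), a late endosome protein, and Rps24 (0.10, 0.09 and 0.11). Npc2 was nearest to Lyz2 (0.11, 0.15 and 0.12), Ctss (0.12, 0.15 and 0.10) and C1qb (0.13, 0.15 and 0.10). For the 3 genes nearest to each of Abca1, Abcg1, Lrp1 and Npc1 every coefficient was below 0.09. The cells of a library share depth and free RNA, and in counts this sparse such coefficients are not a finding.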

How the data were processed

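The authors aligned reads of each 10x 3′ library to mm10 with Cell Ranger, and deposited UMI counts per gene and cell from Seurat, after removal of cells with 200 or fewer genes and of genes found in under 3 cells. These deposited counts were used unnormalized. Members and lists were chosen with earlier results of these data known. Cells with under 8000 genes and at most 10% mitochondrial UMIs were kept. No doublet caller was run. Clusters came from scanpy 1.11.5 (2000 variable genes without lipid-list and sex-linked genes, 15 components, 20 neighbours, Leiden resolution 0.5), and a cluster was named from 3 or more markers of its type among its 10 leading genes, or as microglia-like from microglial markers, and left unnamed where its median UMI count was far below that of its library. Classes were rebuilt here, so their sizes may differ from those of the study. UMI counts were summed per library and class and tested with edgeR 4.0.16 (TMM, filterByExpr, library block, Benjamini-Hochberg). A trial of this fit on simulated sums used a single dispersion and changed only genes of high counts. It does not cover rare genes or differences between libraries in a class ratio. Genotypes, with 1 library each, were given as ratios with 95% counting intervals and called at 1.5-fold with at least 20 CPM. The named genes were all members, extreme genes of each other list (some are not reported here), and the 3 genes best correlated with each member of at least 0.2 UMIs per cell. Alternatives were other scalings, DESeq2 1.42.0, filters, single-cell gates, thinning and left-out libraries or cells. Intervals cover counting error only, and reads of overlapping genes were not separated here.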

Additional observations from a re-analysis of the deposited data

How the results depend on the processing

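Over all genes, lower calls numbered 1837 with library totals, 461 with DESeq2, 1589 with single-cell gates and 622 at 2000 UMIs per cell, against 1033, and higher calls 808 at 2000 UMIs per cell against 1493. Leaving out 1 library gave 1085 to 1261 higher and 679 to 805 lower calls. Of the members, 1 was lower with DESeq2, and 1 whichever library was left out, against 2. Apoe, Fabp5, Npc2 and Soat1 passed under every class alternative. Npc1, which did not pass, changed sign with library totals (-0.091), no filter (-0.0084), single-cell gates (-0.20), thinning (-0.026) and BAM-like cells within the gate (-0.093), and Lpl, which did not pass either, within the gate (-0.0080). Leaving out 1 library gave -0.037 (without Control) to 0.079 for Npc1 and -0.28 (without hCD33m) to 0.29 for Lpl, on the log2 scale. The cause was not tested.

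Genes at least 1.5-fold apart numbered 241, 120 and 171 at 5 CPM and 38, 17 and 35 at 50 CPM (hCD33m over Control, hCD33M over Control, hCD33m over hCD33M). No member was past the limit in hCD33m over Control (0 of 8) over all kept cells, with gates or with the stricter filter, and 2 were without clusters 1 and 9. In hCD33m over hCD33M 1 was past it: Apoe alone at 50 CPM, with gates, thinned, with the stricter filter and without cells holding BAM-marker UMIs, and Lpl alone over all kept cells, where the Apoe log2 ratio was 0.49. Leaving out clusters 1 and 9, or cells with BAM-marker UMIs, and restricting BAM-like cells to the gate were chosen after seeing the data.

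The top 5% Apoe share in hCD33m was 56.2% at 1000 UMIs, 53.7% at 4000, 56.6% unthinned, 50.3% without cells holding BAM-marker UMIs, 51.5% with the stricter filter and 51.2% with gates. In hCD33M it was 81.2% at 1000, 74.2% at 4000, 76.7% unthinned, 75.4% without BAM-marker cells and 76.1% with gates, and in Control 74.5% at 1000 and 67.7% without BAM-marker cells. No paired analysis was possible because each genotype has 1 library, as far as genotypes go. The class test was paired within libraries. Few BAM-like cells (82 to 123) and 9 to 27 Fabp5 UMIs limit the BAM-like levels.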
